A study of Homo sapiens with 118 samples.

Results

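Panobinostat, scriptaid, trichostatin A and vorinostat are histone deacetylase inhibitors that share a hydroxamic acid group. What they had in common at their second highest concentration, and how far each went, was examined in HepaRG cells. The libraries were chosen by label: all those of the 4 chemicals at C4 (11 libraries) and, as the reference, all those of the same chemicals at C1 (12 libraries), which makes 23 of the 118 libraries of the series. The other 35 libraries of these chemicals, at C2, C3 and C5, were read only to place the C4 values in the concentration series. HepaRG is an established human liver cell line, derived from a liver tumour, that was thawed in its differentiated state and kept in culture before exposure. Every library came from cells exposed for 72 h with the chemical renewed daily. C1 and C4 were 0.001468 and 0.03963 µM for panobinostat, 4.94 and 60 µM for scriptaid, 0.018811 and 0.5079 µM for trichostatin A, and 0.404778 and 10.929 µM for vorinostat. Each group held 3 libraries, replicates 1, 2 and 3 from HepaRG batches B326, B330 and B303, except trichostatin A at C4, which held 2 libraries and none from batch B303. Panobinostat and trichostatin A lay on plate H, and scriptaid and vorinostat on plate E. Solvent controls were not used here, so a response already present at C1 would not be seen. With 1 cell line in 3 batches, p-values measure the spread between these libraries only.

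Lysine deacetylases remove acetyl groups from histone tails and from other proteins, and most of them hold a zinc ion in the active site. The hydroxamic acid group binds that zinc ion, acetylation then accumulates, and genes held silent by deacetylase complexes can become transcribed. In hepatocytes this class is known for effects on differentiation, on the cell cycle and on genes outside the tissue's own programme. The 4 molecules differ in the part that faces the outside of the enzyme and in the chain that joins it to the hydroxamic acid. Vorinostat has a phenyl amide on a saturated chain. Trichostatin A has a dimethylaminophenyl ketone on an unsaturated, branched chain. Panobinostat is a cinnamic hydroxamic acid with a methylindole group, and scriptaid has a naphthalimide on an aliphatic chain. No concentration at C4 was common to any of the chemicals (0 matched pairs), so their values are set side by side and no chemical was tested against another.

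Transcripts were counted with TempO-Seq, in which a pair of detector oligonucleotides is ligated on its target RNA and sequenced. A row of the table is such a probe, and a gene may have several. Totals were 1328649 to 4912102 counts per library, with a median of 3284446. Mean totals at C1 and C4 were 4333016 and 3455265 in panobinostat, 3646506 and 2328648 in scriptaid, 3832638 and 3886052 in trichostatin A, and 3038905 and 2384024 in vorinostat, so that in 3 of the chemicals the exposed libraries were the shallower ones. Levels are given as CPM, the counts scaled to a common library total. A pair of libraries stood apart, both from HepaRG batch B303. Replicate 3 of trichostatin A at C1 had a mean correlation of 0.9014 with the other libraries of its group, and in it the probes of hepatocyte secreted proteins summed to 22964 CPM against 98446 and 101302 CPM in its companions. Replicate 3 of scriptaid at C4 had a mean correlation of 0.8368 with its group and the fewest probes with at least 5 counts (10223). Over 12588 probes, the library of the series nearest to the trichostatin A one was replicate 2 of trichostatin A at C5 (correlation 0.92). The nearest to the scriptaid one was replicate 3 of tacedinaline, another chemical of the series, at C2 (0.892). Why they stood apart was not tested. Counts and main values that moved markedly when these libraries were left out are also given without them. They are called the 2 divergent libraries below.

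Hepatocyte markers dominated the libraries. The ALB probe, for albumin, averaged 20576 CPM at C1 over the chemicals, and TTR, for transthyretin, 5851 CPM. Cholangiocyte keratin KRT19 was measured at 10.9 and 33.0 CPM by its probes, and EPCAM, which marks progenitor and biliary cells, had 0 counts in all 23 libraries. Summed over its list, the C1 level was 22964 to 101302 CPM for hepatocyte secreted proteins. It was 380 to 611 CPM for biliary and progenitor markers and 236 to 465 CPM for stromal and stellate cell markers. The label calls the cells liver progenitor cells, while the markers measured here were mainly those of hepatocytes. Of immune markers, PTPRC, CD3E and NKG7 had 0 counts in all 23 libraries, and 2 of 11 probes (CD68 and CD14) were abundant enough to test. Of endothelial markers, 2 of 11 probes were tested (PECAM1 and KDR).

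In the pooled fit, which estimates 1 average change over the chemicals with the chemical as a block, 999 of 13498 probes tested were called (7.4%). Of these, 433 rose (3.21%) and 566 fell (4.19%) at C4. A probe was called when its edgeR adjusted p was under 0.05 and its fold change at least 1.5, and 3226 probes had an unadjusted p under 0.05. The fitted change had 1 sign in all 4 chemicals for 535 of the 999 called probes (254 rising, 281 falling). Over all 13498 probes, called or not, 2340 had 1 sign (17.3%). Probes both called and of 1 sign were 3.96% of all probes. Part of the agreement in sign among called probes follows from the pooled call itself. The median log2 change of the 433 rising and 566 falling probes was 0.87 and -0.76 in panobinostat, 1.32 and -1.33 in scriptaid, 0.15 and -0.03 in trichostatin A, and 1.57 and -2.16 in vorinostat, so a pooled call is not a change seen in each chemical. The pooled count rested heavily on vorinostat and on single libraries. Without vorinostat 27 probes were called, without trichostatin A 1973, without replicate 1 of every group 67, without replicate 2 of every group 7, without the divergent trichostatin A library 1525, and without the 2 divergent libraries 1851 of 13333 (13.9%).

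**Figure D1:**
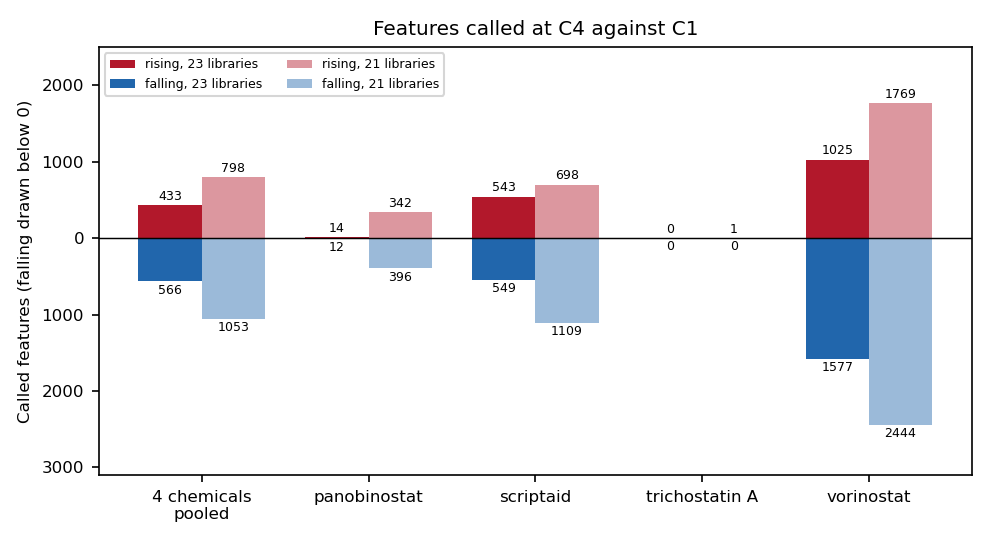
Number of probes called at C4 against C1, rising above 0 and falling below 0, for the 4 chemicals pooled and for each alone; dark bars use all 23 libraries and pale bars the 21 left without the 2 divergent libraries. Vorinostat has the longest bars in both directions, and trichostatin A has none with 23 libraries and a single rising probe with 21.

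Taken one chemical at a time, in a model of 8 group means with 1 shared estimate of spread, the calls were uneven. Vorinostat had 2602 probes called (19.3%), 1025 rising (7.59%) and 1577 falling (11.7%). Scriptaid had 1092 (8.09%), 543 rising (4.02%) and 549 falling (4.07%). Panobinostat had 26 (0.193%), 14 rising (0.104%) and 12 falling (0.0889%). Trichostatin A had 0 (0%) by edgeR and 0 by DESeq2. Of 13498 probes, 686 had an unadjusted edgeR p under 0.05 there, and 1203 in panobinostat, 3022 in scriptaid and 4387 in vorinostat. With no change in any probe, a fraction of about 0.05 would have such a p. Without the 2 divergent libraries the counts of called probes were 738, 1807, 1 and 4213 for panobinostat, scriptaid, trichostatin A and vorinostat. When each chemical was fitted alone with all its concentrations, panobinostat had 336 called probes, scriptaid 623, trichostatin A 0 and vorinostat 3755. In trichostatin A 862 of 12993 probes had an unadjusted edgeR p under 0.05 in that fit. The 4 contrasts share no library, but concentrations differ, so the counts describe these exposures and do not rank the molecules.

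The calls fell largely in the same direction where they coincided. All 26 probes called in panobinostat were called in the same direction in vorinostat, which is 100% of the panobinostat list and 0.999% of the vorinostat list. Panobinostat shared 18 with scriptaid (69.2% and 1.65% of the lists). Scriptaid and vorinostat shared 582 in the same direction (53.3% and 22.4%) and had 22 called in opposite directions. The probes called in panobinostat, scriptaid and vorinostat alike were 9 rising and 9 falling, or 331 in all without the 2 divergent libraries. Read in the other chemicals, the 1025 probes that rose in vorinostat had a median log2 change of 0.39 in panobinostat, 0.44 in scriptaid and -0.11 in trichostatin A, beside medians of all probes between -0.01 and 0.08. The 1577 that fell in vorinostat had medians of -0.37, -0.53 and 0.14. Thus the vorinostat probes had the same sign in panobinostat for 85.6% of the rising and 84.6% of the falling ones. Of all probes, 49.7% were above 0 and 50.3% below 0 in panobinostat. In trichostatin A the same-sign shares were 37.6% and 37.7%, beside 48.6% above 0 and 51.3% below 0 of all probes. Without the 2 divergent libraries the same-sign shares in trichostatin A were 48.3% and 50.0%.

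Rising genes were named by a rule: called in the pooled fit, with a fitted change above 0 in all 4 chemicals, and with the largest smallest change over them. None was called in trichostatin A alone, so in that chemical only the sign of the fit is meant. They were CALB2, MYL1, HBG1, CNTN1, SERPINI1, C15orf48, MYOZ2 and PPM1J. MYL1, HBG1 and CNTN1 were called in panobinostat, scriptaid and vorinostat alike. CALB2 and SERPINI1 missed the call in panobinostat (edgeR adjusted p = 0.42 and 0.607), as did C15orf48 (0.0633) and PPM1J (0.151). CALB2 also missed it in vorinostat (0.0597), and SERPINI1 (0.301) and MYOZ2 (0.356) missed it in scriptaid. There too only the sign is meant. All the genes named here were chosen on these values, so their changes describe the choice. None is in the hepatocyte lists used here, but the rule favours genes with few counts at C1. The mean levels of these genes at C1 ran from 0 to 6.28 CPM over the chemicals, so that absence follows in part from the rule. MYL1 and MYOZ2 encode proteins of the muscle sarcomere, HBG1 a fetal globin chain, CALB2 the calcium-binding protein calretinin of neurons, CNTN1 a neuronal adhesion protein and SERPINI1 the neuronal protease inhibitor neuroserpin. PPM1J is a protein phosphatase. C15orf48 encodes a small mitochondrial protein linked to inflammation.

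HBG1 had the smallest adjusted p of these. Its level in panobinostat was 0, 2.15 and 1.59 CPM at C1 and 16.5, 15.2 and 21.3 CPM at C4. In scriptaid it was 2.18, 0.728 and 1.45 CPM at C1 and 18.0, 11.8 and 17.3 CPM at C4. In vorinostat it was 2.24, 1.51 and 0.943 CPM at C1 and 45.9, 36.2 and 47.3 CPM at C4. In these 3 chemicals no C4 library overlapped a C1 library. In trichostatin A the C1 libraries had 0.226, 0 and 0.300 CPM and the C4 libraries 0.472 and 1.64 CPM, which is 0 or 1 count against 2 and 5 counts. The pooled log2 change was 3.92 (SE 0.36, adjusted p = 3.44e-07), with C4 above C1 in 11 of 11 pairs of the same batch. The HBG1 probe may also take reads of the near-identical HBG2, so the 2 globins are not separated here. HBG1 was the 1 probe called of 4 tested from a list of fetal and embryonic genes, where 3.21% of all probes rose.

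CNTN1 was also higher at C4 in 11 of 11 pairs. It was measured at 3.06, 1.51 and 5.41 CPM at C1 and 16.5, 18.8 and 31.8 CPM at C4 in panobinostat. It was at 5.91, 5.09 and 7.85 CPM and then 27.8, 19.1 and 28.8 CPM in scriptaid. In vorinostat it was at 0.560, 2.26 and 4.09 CPM and then 39.0, 29.0 and 50.6 CPM. All C4 libraries of these chemicals lay above all their C1 libraries. In trichostatin A CNTN1 was at 1.80, 2.77 and 0.599 CPM at C1 and at 4.72 and 8.20 CPM at C4, again without overlap. A second CNTN1 probe had a pooled log2 change of 2.48 (adjusted p = 5.94e-05). For the probe whose levels are given the pooled log2 change was 2.71 (SE 0.31, adjusted p = 8.09e-06), and the change in trichostatin A alone was 1.86 (SE 0.60, edgeR adjusted p = 0.959).

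MYL1 and C15orf48 likewise rose in 11 of 11 pairs, by 4.72 (SE 0.54, adjusted p = 8.09e-06) and 3.47 (SE 0.40, adjusted p = 8.09e-06) on the log2 scale. MYL1 had at most 4 counts in any C1 library, so its fitted change depends on the prior count. In scriptaid, where MYL1 had 0 counts in all C1 libraries and 11.1, 7.88 and 5.05 CPM at C4, it was at least 9.49-fold higher, with 3 counts per library as the floor. C15orf48 in scriptaid was at 27.8, 28.5 and 130 CPM at C4, the last in the divergent library, and at 2.18, 2.67 and 3.49 CPM at C1. CALB2, SERPINI1, MYOZ2 and PPM1J were higher at C4 in 10 of 11 pairs each. MYOZ2 in panobinostat was at 0, 0.431 and 0 CPM at C1 and 11.5, 15.7 and 8.39 CPM at C4, and in vorinostat at 1.12, 1.51 and 0.943 CPM and then 39.7, 48.4 and 35.5 CPM. In trichostatin A, CALB2 had at most 2 counts in any library at either concentration, so no change can be read there.

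**Figure D2:**
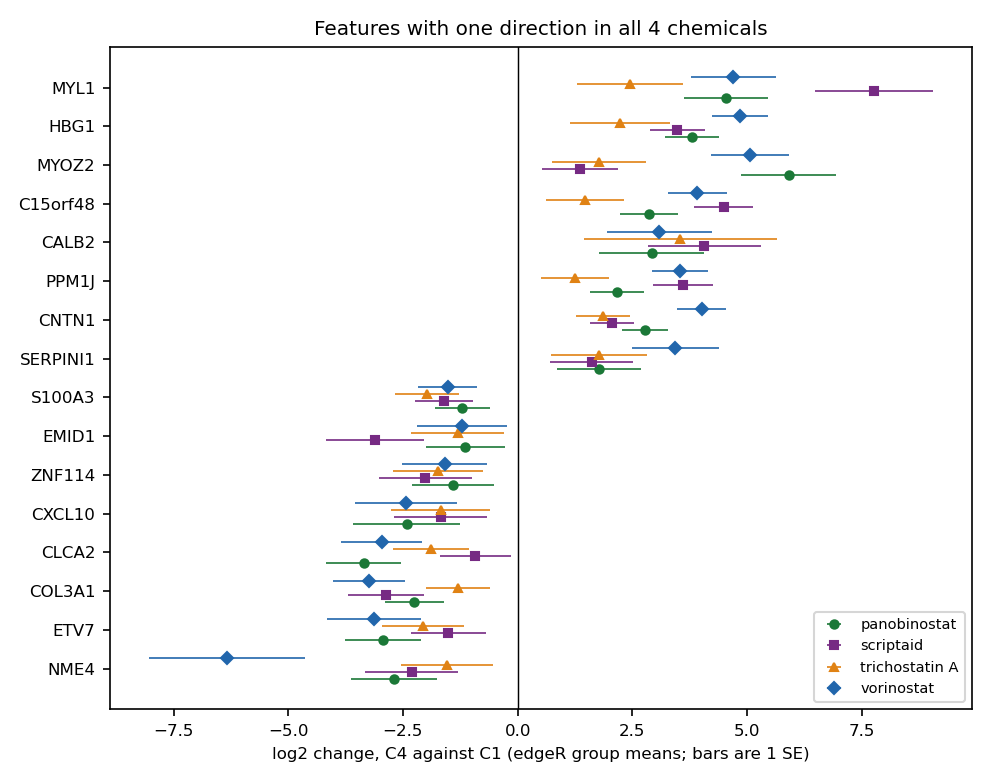
Fitted log2 change at C4 against C1 in each chemical for the 8 rising and 8 falling genes named as shared, with bars of 1 SE. All points of a gene lie on the same side of 0, which the naming rule required, and the widest bar for CALB2 is that of trichostatin A.

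The falling genes named by the same rule were CXCL10, NME4, ETV7, ZNF114, COL3A1, S100A3, EMID1 and CLCA2. Taken one chemical at a time, COL3A1 was called in scriptaid and vorinostat, and NME4, ETV7 and CLCA2 in vorinostat only. CXCL10, ZNF114, S100A3 and EMID1 were called in no single chemical, so for them only the pooled call and the sign are meant. CXCL10 encodes an interferon-induced chemokine and ETV7 an interferon-induced ETS family repressor. S100A3 is a calcium-binding protein of the S100 family. COL3A1 encodes the fibrillar collagen III chain, NME4 a mitochondrial nucleoside diphosphate kinase, and ZNF114 a zinc finger protein. COL3A1 was measured at 23.4, 24.8 and 20.1 CPM at C1 and 7.17, 3.37 and 3.90 CPM at C4 in panobinostat. In scriptaid it was at 9.34, 13.1 and 7.56 CPM and then 0.856, 0 and 4.33 CPM. In vorinostat it was at 14.6, 9.06 and 16.0 CPM and then 0, 0 and 3.31 CPM. In trichostatin A it was at 20.8, 17.6 and 37.7 CPM and then 12.8 and 7.87 CPM. No C4 library overlapped the C1 libraries of its chemical. The pooled log2 change was -2.30 for COL3A1 (SE 0.38, adjusted p = 0.000971), -2.55 for NME4 (SE 0.53, adjusted p = 0.00414) and -2.35 for ETV7 (SE 0.44, adjusted p = 0.00228), each lower in 11 of 11 pairs. NME4 in vorinostat had 0 counts in every C4 library and 1.12, 4.03 and 3.77 CPM at C1, so it was at least 2.26-fold lower there. For S100A3, CXCL10 and ZNF114 the value in trichostatin A rested on the divergent library. S100A3 was at 604 CPM in it and at 55.9 and 69.9 CPM in the other C1 libraries, and without the 2 divergent libraries the trichostatin A change was -0.16 for CXCL10, -0.43 for ZNF114 and 0.00 for S100A3. The call of EMID1 (pooled log2 change -1.60, adjusted p = 0.0385) was lost with the HepaRG batch as a block (adjusted p = 0.0561).

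The promoters of 2 rising and 2 falling genes of these sets are shown, as RefSeq gives them for GRCh38.p14, to let a reader see how unlike they are in base composition. They are the 250 bases upstream of the transcription start, written 5′ to 3′ on the gene's strand. Capitals mark matches on either strand to the TATA box letters TATAAA, to the GC box letters GGGCGG, to the CCAAT box and to the letters GTTAAT of the HNF1 site, and matches may overlap. Among 27305 promoters of the table, 11.1% hold the TATA box letters, 42.3% the GC box letters, 33.0% the CCAAT box and 6.22% the HNF1 letters in these 250 bases.
MYL1, rising, chr2:210315175-210315424, minus strand: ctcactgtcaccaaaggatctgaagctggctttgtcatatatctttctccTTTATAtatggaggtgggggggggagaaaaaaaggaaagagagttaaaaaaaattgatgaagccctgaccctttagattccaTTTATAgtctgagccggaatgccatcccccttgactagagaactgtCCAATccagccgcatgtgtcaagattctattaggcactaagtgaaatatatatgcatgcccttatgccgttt
CNTN1, rising, chr12:40827934-40828183, plus strand: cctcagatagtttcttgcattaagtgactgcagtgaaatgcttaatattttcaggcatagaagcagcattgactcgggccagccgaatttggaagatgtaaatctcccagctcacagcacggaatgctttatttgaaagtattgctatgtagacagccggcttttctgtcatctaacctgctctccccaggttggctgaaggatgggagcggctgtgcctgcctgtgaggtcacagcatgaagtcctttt
NME4, falling, chr16:396949-397198, plus strand: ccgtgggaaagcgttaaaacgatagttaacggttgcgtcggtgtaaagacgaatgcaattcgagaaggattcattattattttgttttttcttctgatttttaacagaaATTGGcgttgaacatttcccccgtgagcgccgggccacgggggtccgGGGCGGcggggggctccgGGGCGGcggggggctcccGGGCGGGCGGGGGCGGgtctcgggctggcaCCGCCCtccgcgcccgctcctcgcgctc
CLCA2, falling, chr1:86423921-86424170, plus strand: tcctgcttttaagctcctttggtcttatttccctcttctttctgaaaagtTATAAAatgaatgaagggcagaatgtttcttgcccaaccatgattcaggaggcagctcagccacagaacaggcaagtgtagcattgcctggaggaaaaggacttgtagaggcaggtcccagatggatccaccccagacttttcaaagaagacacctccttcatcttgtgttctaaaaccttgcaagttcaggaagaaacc
MYL1 holds the TATA box letters at 2 places and the CCAAT box at 1, CNTN1 holds none of the motifs, NME4 holds the GC box letters at 6 places and the CCAAT box at 1, and CLCA2 holds the TATA box letters at 1. The GC content was 42.4% for MYL1, 47.2% for CNTN1, 62.0% for NME4 and 44.8% for CLCA2, beside a median of 58.0% over the table. None of the 4 motifs searched is in all of these sequences. Motif shares of all rising and all falling genes are not given, since a promoter was matched for 79.5% and 75.8% of them, under the 80% needed for such a comparison.

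Genes chosen without a chemical's own libraries give a reading of how far that chemical went along the change of the others. Each chemical was read on its own set of probes, so scores and their differences are not on 1 scale across chemicals. Probes called in the pooled fit of the other 3 chemicals were taken, and in each library of the left-out chemical the mean log2 CPM of the falling ones was subtracted from that of the rising ones. For panobinostat (170 rising and 214 falling probes) this score was -2.70, -2.59 and -2.57 at C1 and -1.05, -1.13 and -1.18 at C4, a difference of 1.5 ± 0.13 (SD over 3 batches). For scriptaid (259 and 309 probes) it was -1.5, -1.55 and -1.66 at C1 and -0.10, 0.38 and -0.19 at C4, a difference of 1.60 ± 0.29. For vorinostat only 14 rising and 13 falling probes were available, and the score was -2.49, -2.39 and -2.89 at C1 and 2.04, 2.34 and 2.00 at C4, a difference of 4.72 ± 0.18. C4 and C1 libraries did not overlap in these 3 chemicals.

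Trichostatin A gave other values. With 895 rising and 1078 falling probes, its score was -1.76, -1.68 and -0.14 at C1 and -1.65 and -1.54 at C4. The C1 value of -0.14 came from the divergent library, so the groups overlapped. Within the 2 batches present at both concentrations the score was higher at C4 by 0.11 and 0.14. The score of trichostatin A was between -1.74 and -1.70 in every library at C2 and C3, and at C5 (1.5237 µM) it was -1.11, -0.80 and -1.34. The medians of the fitted changes were -0.12 for the rising probes and 0.22 for the falling ones, and 0.01 and -0.01 without the 2 divergent libraries. They were 0.63 and -0.54 in panobinostat, 0.81 and -0.55 in scriptaid, and 3.44 and -2.10 in vorinostat, among the probes abundant enough to be fitted in the chemical alone. Beyond C4 the score was higher in panobinostat, at 0.19, 0.43 and 0.38 at C5 (0.084 µM), and in scriptaid, at 1.74, 1.77 and 1.84 at C5 (94.5 µM), without overlap with C4. In vorinostat the C5 values of 1.96, 2.84 and 2.45 overlapped those at C4. These differences along the series were not tested.

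**Figure D3:**
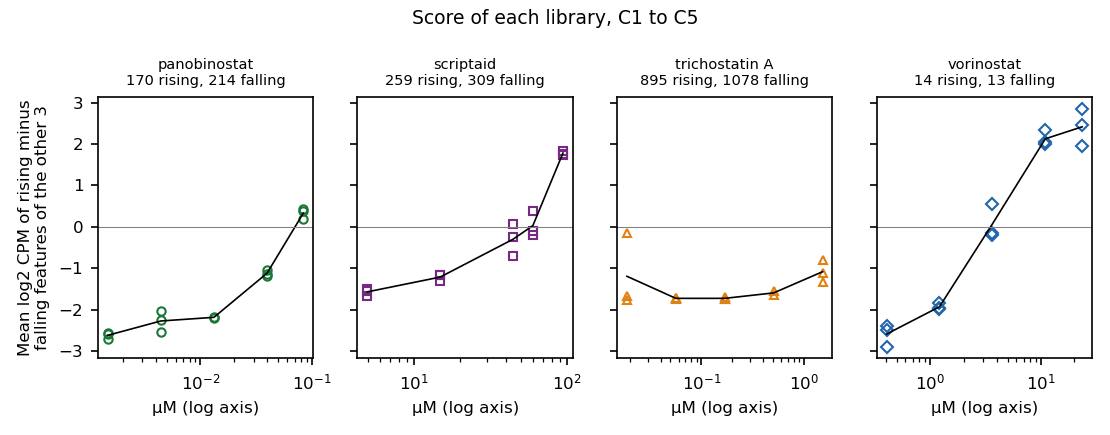
Score of each library (points) and mean per concentration (line) against concentration in µM on a log axis, with the number of rising and falling probes of the other 3 chemicals above each panel; panels use different probes. At C4 panobinostat, scriptaid and vorinostat lie above all their C1 libraries, while trichostatin A lies near its C1 to C3 level, with 1 C1 library apart at -0.14.

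Genes of hepatocyte function were among those that fell. CYP7A1, the rate-limiting enzyme of bile acid synthesis, had the largest fall among those named by size. It was measured at 98.6, 122 and 74.2 CPM at C1 and at 9.67, 9.54 and 6.59 CPM at C4 in panobinostat. In scriptaid it went from 73.8, 60.9 and 51.5 CPM to 1.28, 0.909 and 0 CPM, and in vorinostat from 34.2, 65.4 and 51.6 CPM to 0.685, 0.659 and 0 CPM. In trichostatin A it was at 111, 101 and 1.80 CPM at C1, the last in the divergent library, and at 106 and 75.1 CPM at C4. The groups did not overlap in the first 3 chemicals and overlapped in trichostatin A. The log2 change of CYP7A1 was -3.36 in the pooled fit (SE 0.67, adjusted p = 0.00326) and -3.51 in panobinostat alone (SE 0.68, adjusted p = 0.0173).

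Others named by size were HAO2 (a peroxisomal hydroxyacid oxidase), FABP1 (liver fatty acid-binding protein), RDH16 (a retinol dehydrogenase), AFM (the plasma protein afamin) and ACSM2A (a mitochondrial acyl-CoA synthetase), with pooled log2 changes of -3.00, -2.77, -2.99, -2.78 and -2.71. FABP1 was at 243, 348 and 272 CPM at C1 in vorinostat and at 1.37, 2.31 and 1.51 CPM at C4. In scriptaid FABP1 went from 398, 279 and 364 CPM to 11.6, 3.64 and 15.1 CPM. Panobinostat libraries had 437, 335 and 225 CPM at C1 and 126, 195 and 186 CPM at C4, also without overlap, and the fitted difference was -0.98 (log2, SE 0.66, edgeR adjusted p = 0.758, or 0.000623 without the 2 divergent libraries). In trichostatin A FABP1 was at 520, 507 and 5.99 CPM at C1 and at 555 and 533 CPM at C4. Without the 2 divergent libraries its pooled log2 change was -2.82 and its trichostatin A change 0.09.

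**Figure D4:**
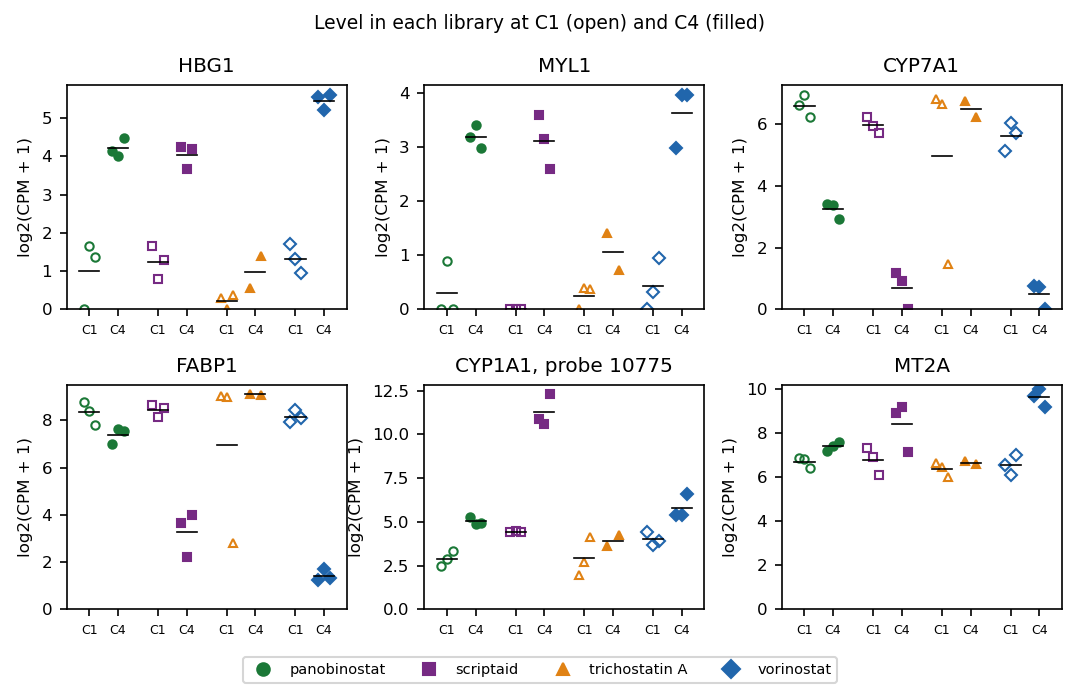
Level of 6 genes in each library, as log2(CPM + 1), at C1 (open) and C4 (filled) for the 4 chemicals, with a line at the mean of each group. HBG1 and MYL1 are higher and CYP7A1 is lower at C4 in panobinostat, scriptaid and vorinostat; in trichostatin A the 1 low C1 library of CYP7A1 and FABP1 is the divergent one.

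Of 22 probes for hepatocyte secreted proteins, 9 fell and 0 rose in the pooled fit (4.19% of all probes fell). Without the divergent trichostatin A library 19 fell, beside 861 of all 13393. With both divergent libraries left out 20 fell, beside 1053 of all 13333. HP (haptoglobin), AHSG (fetuin A), F2 (prothrombin) and VTN (vitronectin) were the 4 with the largest changes. HP went from 11103, 14732 and 12131 CPM to 1001, 804 and 895 CPM in vorinostat and from 10359, 8341 and 10138 CPM to 2291, 1750 and 2018 CPM in scriptaid. Its levels in panobinostat were 17792, 14271 and 11728 CPM at C1 and 7941, 11466 and 10114 CPM at C4. The pooled log2 change was -1.60 for HP (SE 0.38, adjusted p = 0.00998), -2.31 for AHSG, -1.30 for F2 and -1.29 for VTN. The median log2 change of the list was -0.45 in panobinostat, -1.67 in scriptaid, 0.51 in trichostatin A and -1.99 in vorinostat, and with the 2 divergent libraries left out the trichostatin A median was 0.06. ALB had a pooled log2 change of -1.10 (adjusted p = 0.0172). TTR, whose pooled log2 change was 0.07 (adjusted p = 0.872), did not pass the test. In such cultures a smaller share of hepatocytes and less of these RNAs per hepatocyte cannot be told apart.

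Other hepatocyte lists showed the same order of medians over the chemicals with all libraries. They are read beside 4.19% of all probes falling, or beside a pooled 1053 falling probes of 13333 where the 2 divergent libraries are left out. Bile acid synthesis and transport had 8 of 22 probes falling and 0 rising (13 falling without the 2 divergent libraries), among them CYP7A1, the organic anion transporter SLC22A7 and the bile acid conjugating enzyme BAAT (its adjusted p of 0.0485 was 0.0608 with the HepaRG batch as a block). The list medians were -0.32 in panobinostat, -1.41 in scriptaid, 0.45 in trichostatin A and -2.73 in vorinostat, and the trichostatin A median was 0.10 without the 2 divergent libraries. BAAT in vorinostat went from 1139, 1399 and 1165 CPM to 17.8, 15.2 and 45.5 CPM. Fatty acid and peroxisomal oxidation had 5 of 17 falling (8 without the 2 divergent libraries), with HAO2, FABP1 and CYP4A11 (fatty acid hydroxylation) among them. Urea cycle and amino acid breakdown had 3 of 15 falling (8 without those libraries), AGXT, HPD and CPS1, and the call of AGXT (adjusted p = 0.0416) was lost with the batch as a block (adjusted p = 0.0529). CPS1, the first enzyme of the urea cycle, fell by 1.26 (SE 0.35, adjusted p = 0.0247). Hepatocyte transcription factors had 2 of 21 falling (6 without those libraries), CEBPA and PROX1. Taken one chemical at a time, 11 fell in vorinostat and 0 in panobinostat, beside 11.7% and 0.0889% of all probes. CEBPA (adjusted p = 0.0498) was lost without the divergent scriptaid library (adjusted p = 0.0506). PROX1 was at 114, 117 and 100 CPM at C1 and 43.2, 35.2 and 37.3 CPM at C4 in vorinostat, at 121, 115 and 103 CPM and then 88.0, 99.9 and 106 CPM in panobinostat.

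**Figure D5:**
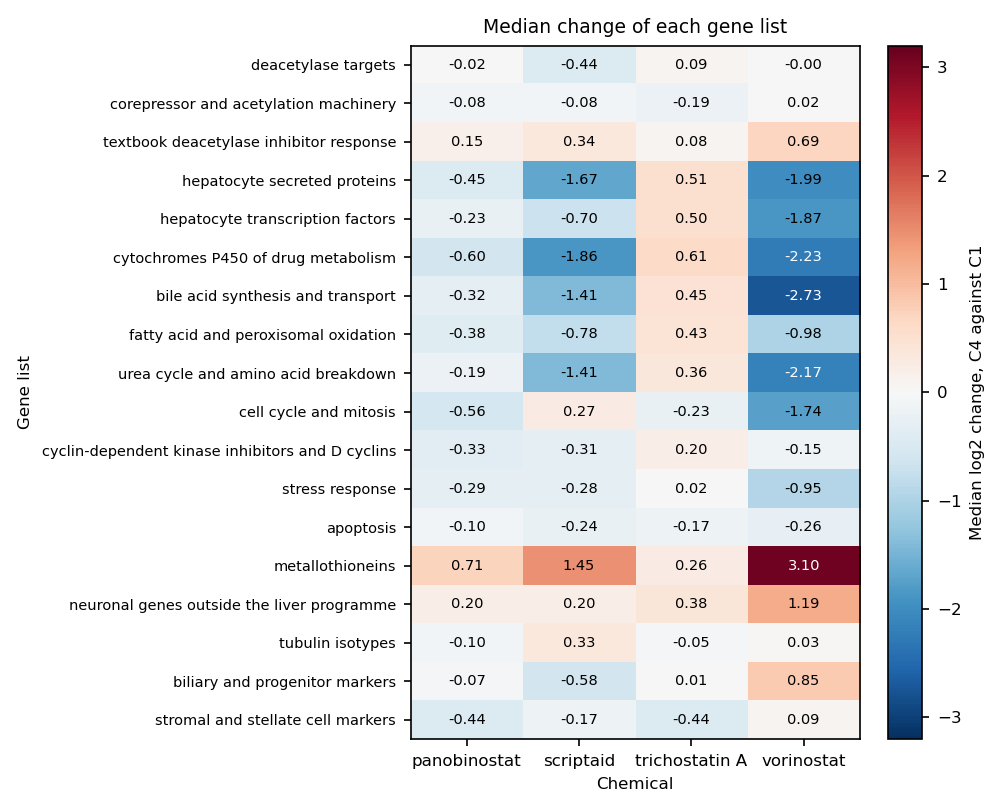
Median log2 change at C4 against C1 of each gene list with at least 5 probes tested, by chemical (red above 0, blue below 0). The hepatocyte lists are below 0 in panobinostat, scriptaid and vorinostat and above 0 in trichostatin A with all libraries, where without the 2 divergent libraries the secreted protein median is 0.06 and the bile acid median 0.10, and the metallothionein list is highest in vorinostat.

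Drug-metabolising cytochromes P450 split. Of 20 probes, 7 fell and 3 rose, where 4.19% of all probes fell and 3.21% rose. With the 2 divergent libraries left out 10 fell and 4 rose, beside 1053 falling and 798 rising of all 13333. The 3 rising ones were both probes of CYP1A1 and 1 of CYP1A2, targets of the aryl hydrocarbon receptor. CYP1A1, by the more abundant of its probes, in scriptaid was at 20.2, 21.6 and 20.6 CPM at C1 and at 1862, 1543 and 5150 CPM at C4, the highest in the divergent library. Its levels were far lower in the other chemicals, at 4.59, 6.24 and 8.91 CPM and then 38.4, 28.1 and 29.1 CPM in panobinostat and 20.7, 11.8 and 13.8 CPM and then 40.4, 40.8 and 96.7 CPM in vorinostat. In trichostatin A it was at 2.93, 5.54 and 16.5 CPM at C1 and 11.1 and 17.7 CPM at C4. CYP1A1 rose by 3.01 in the pooled fit (SE 0.61, adjusted p = 0.00352) and by 7.15 in scriptaid (edgeR adjusted p = 3.93e-08), or by 6.37 in scriptaid without the 2 divergent libraries. Along the series it was not steadily higher: scriptaid averaged 837 CPM at C3, 2852 CPM at C4 and 275 CPM at C5, and vorinostat 98.7, 59.3 and 12.2 CPM.

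Metallothioneins, small proteins that bind zinc and copper, had 4 of 5 tested probes rising and 0 falling, where 3.21% of all probes rose. MT2A was at 93.6, 67.9 and 129 CPM at C1 and at 829, 1021 and 580 CPM at C4 in vorinostat. In scriptaid it went from 160, 121 and 66.9 CPM to 482, 571 and 138 CPM, where the value of 138 CPM, from the divergent library, lay within the C1 range. In panobinostat it was at 115, 111 and 83.4 CPM and then 143, 171 and 193 CPM, without overlap, and in trichostatin A at 100, 85.9 and 62.9 CPM and then 105 and 94.5 CPM. MT2A rose by 1.55 on the pooled log2 scale (SE 0.30, adjusted p = 0.00275), higher in 11 of 11 pairs. MT1X, MT1A and MT1M also rose, at lower levels. The call of MT1A (adjusted p = 0.0400) was lost with the batch as a block (adjusted p = 0.0539). The median of the list was 3.10 in vorinostat, or 2.55 with MT1A, which had 0 counts in all C1 libraries there, at its bound. The other medians were 1.45 in scriptaid, 0.71 in panobinostat and 0.26 in trichostatin A. MT2A averaged 2003 CPM at C5 of vorinostat and 911 CPM at C5 of scriptaid.

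Genes of the cell cycle and mitosis had 6 of 19 probes falling and 0 rising (4.19% of all probes fell). With the 2 divergent libraries left out 10 fell, beside 1053 of all 13333. CCNB1 (cyclin B1), BUB1 (spindle checkpoint kinase), TOP2A (topoisomerase II alpha) and AURKA (Aurora A kinase) had the largest changes, of -1.42, -1.16, -1.08 and -1.02. BUB1 went from 58.8, 70.7 and 89.6 CPM to 11.0, 10.5 and 12.0 CPM in vorinostat and from 81.3, 91.7 and 75.8 CPM to 38.1, 25.8 and 50.6 CPM in panobinostat. In scriptaid BUB1 was at 59.5, 72.5 and 57.8 CPM and then 41.5, 40.9 and 19.5 CPM, and in trichostatin A at 79.4, 73.0 and 19.5 CPM and then 52.2 and 56.7 CPM. The list median was -0.56 in panobinostat, 0.27 in scriptaid, -0.23 in trichostatin A and -1.74 in vorinostat. Scriptaid had 2 probes rising and 1 falling, beside 4.02% and 4.07% of all probes. Without the 2 divergent libraries the median was 0.04 in scriptaid and -0.40 in trichostatin A. Scriptaid then had 2 probes rising and 4 falling, beside 698 and 1109 of all 13333. Panobinostat then had 7 falling, beside 396 of all 13333. Among 8 probes of cyclin-dependent kinase inhibitors and D cyclins, CDKN2C fell by 1.06. CDKN1A, the p21 gene that such inhibitors are known to raise, had too few counts to be tested: its mean was 0.524 ± 0.91 CPM at C1 and 2.55 ± 0.92 CPM at C4 in vorinostat (SD, 3 libraries each).

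A list of textbook responses to deacetylase inhibition had 3 of 17 probes rising, MT1X, MT2A and TXNIP, and 1 falling, GSN, where 3.21% of all probes rose and 4.19% fell. Without the 2 divergent libraries 4 rose and 2 fell, beside 798 rising and 1053 falling of all 13333. TXNIP, the thioredoxin-interacting protein, was higher at C4 in 11 of 11 pairs and rose by 1.13 (SE 0.23, adjusted p = 0.00377). GSN, the actin-severing protein gelsolin that is commonly cited as raised by these inhibitors, fell by 1.04 (SE 0.21, adjusted p = 0.00359). It went from 480, 496 and 492 CPM to 118, 119 and 100 CPM in vorinostat, from 434, 519 and 458 CPM to 161, 136 and 168 CPM in scriptaid, and from 527, 452 and 427 CPM to 284, 292 and 353 CPM in panobinostat. H1F0, the linker histone H1.0 gene, had a log2 change of 0.34 (adjusted p = 0.408).

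The deacetylases themselves had 1 of 15 tested probes called, a share near the 7.4% of all probes. It was the least abundant of the HDAC6 probes, which fell by 0.81 (SE 0.26, adjusted p = 0.0491) and whose call was lost without a filter on low counts (adjusted p = 0.0531). The other HDAC6 probes had changes of -0.41, -0.44 and -0.22 and did not pass with all libraries. The first of these, from the most abundant HDAC6 probe, was called in vorinostat alone (-1.33, adjusted p = 0.00429) and in the pooled fit without the 2 divergent libraries (-0.67, adjusted p = 0.00297). HDAC2 was higher in 10 of 11 pairs, by 0.51 on the log2 scale (adjusted p = 0.0536), and it passed without trichostatin A (0.67, adjusted p = 0.0144). Without the 2 divergent libraries the HDAC2 change was 0.33, under the 1.5-fold limit, and its scriptaid change went from 0.95 to 0.15. HDAC1, HDAC3 and HDAC8 had changes of -0.02, 0.36 and 0.10. In vorinostat alone HDAC3 rose by 1.19 (adjusted p = 0.00977). Of 22 probes of corepressor and acetylation machinery, 0 were called by edgeR. The lowest adjusted p was that of NCOR1 (0.0204), whose change was under the 1.5-fold limit.

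Stress response genes had 2 of 21 probes rising and 3 falling, where 3.21% of all probes rose and 4.19% fell. With the 2 divergent libraries left out 6 fell, beside 1053 of all 13333. SRXN1 and TXNRD1, targets of the antioxidant factor NRF2, rose by 0.97 (SE 0.16, adjusted p = 0.00102) and 0.67 (adjusted p = 0.0454, or 0.0655 with the batch as a block). SRXN1 was at 145, 145 and 130 CPM at C1 and 462, 474 and 434 CPM at C4 in scriptaid, and at 152, 132 and 165 CPM and then 362, 431 and 366 CPM in vorinostat. ATF5, a transcription factor of the mitochondrial stress response, fell by 1.75 (SE 0.38, adjusted p = 0.00608), with 26.3, 20.9 and 26.1 CPM at C1 and 0.685, 0 and 0.904 CPM at C4 in vorinostat. HSPA5, the chaperone of the endoplasmic reticulum, fell by 0.64. Of 23 apoptosis probes, BMF, which promotes apoptosis, rose by 1.04 (SE 0.26, adjusted p = 0.0148). In the same list 5 fell, among them the death receptor TNFRSF10B (-0.71). With the 2 divergent libraries left out 3 rose and 5 fell, beside 798 and 1053 of all 13333. Of 9 tubulin probes, TUBA1B fell by 0.97. Of 7 neuronal probes, CCK (cholecystokinin) rose by 2.48 (adjusted p = 0.0182), with the largest change in vorinostat, where it went from 0.560, 0.755 and 0 CPM to 37.7, 41.5 and 25.6 CPM.

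Markers of other cell types were examined beside these changes. Biliary and progenitor probes had 1 of 10 rising, SPP1, and 1 falling, MMP7, where 3.21% of all probes rose and 4.19% fell. SPP1, which encodes osteopontin, was at 4.15, 5.81 and 2.55 CPM at C1 and 34.3, 27.2 and 31.2 CPM at C4 in panobinostat, at 16.8, 20.1 and 15.4 CPM and then 55.2, 56.1 and 141 CPM in scriptaid, and at 2.24, 13.6 and 6.29 CPM and then 30.1, 33.9 and 47.6 CPM in vorinostat. It rose by 2.00 (SE 0.34, adjusted p = 0.00104), and its trichostatin A value was 0.00 with all libraries and 0.92 without the 2 divergent ones. The summed level of the biliary list was 380 to 611 CPM at C1 and 260 to 573 CPM at C4. Stromal and stellate cell probes had 3 of 13 falling (COL3A1, CCDC80 and ACTA2), beside 4.19% of all probes. Their summed level was 236 to 465 CPM at C1 and 229 to 304 CPM at C4. Immune probes summed to 24.7 to 69.5 CPM at C1 and 13.7 to 48.2 CPM at C4, and endothelial probes to 6.73 to 51.5 CPM and 5.93 to 33.4 CPM. The highest C1 sums of these lists (465, 69.5 and 51.5 CPM) were in trichostatin A, where the group medians were 366, 51.4 and 17.6 CPM. Of the immune and endothelial probes tested, CD68 had the lowest adjusted p (0.166). Without the 2 divergent libraries 1 endothelial probe of 2 fell, beside 1053 falling of all 13333. The part of other cell types in the fall of the hepatocyte genes was not tested.

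Among the genes with the largest pooled rises were also CGA, DNAJC5B and MORN5. CGA, the common alpha chain of pituitary and placental glycoprotein hormones, had 0 counts in all C1 libraries of vorinostat and 25.3, 26.4 and 15.4 CPM at C4, at least 19.8-fold higher. In trichostatin A it had 0 counts at C4. DNAJC5B, which encodes a J-domain co-chaperone, rose by 4.34 on the log2 scale (SE 0.63, adjusted p = 0.000291), higher in 10 of 11 pairs. MORN5 rose by 3.79 in the pooled fit (SE 0.66, adjusted p = 0.00118), higher in 11 of 11 pairs. In trichostatin A alone its fitted change was -0.23 (SE 0.99), with means of 0.952 CPM at C1 and 0.754 CPM at C4. The trichostatin A C1 library from batch B303 enters that fit but has no pair. MORN5 was at 8.42, 8.14 and 8.09 CPM at C4 in panobinostat and 2.14, 5.76 and 5.05 CPM in scriptaid. It was at 1.18 and 0.328 CPM in trichostatin A, and 27.4, 31.6 and 15.1 CPM in vorinostat. Its C1 libraries had at most 7 counts in any chemical.

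A common change described only part of the response. The change differed between the chemicals at the concentrations used for 1009 probes (7.48%; edgeR test of the chemical by concentration terms together), and for 399 of the 999 probes called in the pooled fit (39.9%). This test checks the pooled model and ranks no chemical, since concentrations were not matched. Of the shared genes, HBG1 (adjusted p = 0.541), CNTN1 (0.182), MYL1 (0.343), COL3A1 (0.516) and ETV7 (0.736) did not pass it with all libraries. Without the 2 divergent libraries CNTN1 (0.0291) and COL3A1 (0.0255) passed. A p that misses the threshold does not show that the changes were equal. CYP7A1, FABP1, HP and CYP1A1 passed it.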

How the data were processed

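The libraries were prepared by TempO-Seq, and the deposited file holds raw counts per probe made by the authors, with no normalization. The submitters' processing notes name bcl2fastq 2.20.422, fastp 0.23.2, STAR 2.7.10b and DESeq2 1.38.0. The role of each tool is not given in the sources used here. Of 22069 probes, 1 (SEC13) lacked values in some libraries and was left out, leaving 22068. Groups and batches were taken from the labels, and replicates come from separate HepaRG batches.

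Counts were analysed in R 4.3.3 with edgeR 4.0.16 (TMM scaling, filterByExpr on the 8 groups, quasi-likelihood F test, Benjamini-Hochberg adjustment over all 13498 probes tested). The pooled fit had chemical and concentration as terms. Each chemical's contrast came from a model of the 8 group means, and a test of the 3 chemical by concentration terms gave the departure from a common change. A call needed an adjusted p under 0.05 and a fold of at least 1.5. CPM used TMM factors over the 58 libraries of the 4 chemicals. A group with 0 counts in all libraries was set to a floor of 3 counts per library for a bound, and intervals or floors cover counting error only. DESeq2 1.42.0, other scalings, filters, thinning to 1328649 counts, gene sums, the HepaRG batch as a block and left-out libraries or chemicals were alternatives. Settings that leave out the divergent scriptaid library, or both divergent libraries, were chosen after seeing the data.

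Genes named are the 8 rising and 8 falling shared by the 4 chemicals with the largest smallest change, the 6 rising and 6 falling with the largest pooled change (1 probe per gene, mean of at least 5 CPM at C1 or C4), up to 4 called probes with the largest change in each of 21 lists, all deacetylases, CDKN1A and H1F0. A few genes that this rule names are not reported here. Members and lists were chosen with earlier results of these data known. In data simulated for the pooled comparison (13045 probes), 61.5% of changes of 1 and 99.0% of changes of 2 on the log2 scale were called, and 0.031% of unchanged probes. Each changed probe was given the same change in all 4 chemicals, and no library was made divergent. The data here differ in both respects, so these rates do not carry over to them.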

Additional observations from a re-analysis of the deposited data

Results flagged for a closer look

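The change at C4 differed between the 4 chemicals, at unmatched concentrations, for 1009 probes by the edgeR test of the chemical by concentration terms, and for named probes whose adjusted p are given here. Among genes named by size these were CGA (0.045), CYP1A1 by its dimmer probe (0.00493), MORN5 (0.0099), CYP7A1 (0.00099), HAO2 (1.61e-05), RDH16 (0.00045), AFM (9.39e-05), FABP1 (0.000253) and ACSM2A (6.86e-05). Among hepatocyte lists they were AHSG (0.00223), HP (7.38e-05), F2 (0.00376), VTN (0.0161), PROX1 (0.00908), CYP1A1 by its brighter probe (2.78e-05), SLC22A7 (0.0015), BAAT (1.31e-05), CYP4A11 (0.0296), AGXT (0.00159), HPD (0.0019) and CPS1 (0.00295). In the remaining lists they were MT2A (0.00481), MT1A (0.0267), GSN (0.000375), CCNB1 (0.0318), BUB1 (0.016), ATF5 (0.00258), SRXN1 (0.000437), CCK (0.00547) and BID, by each of its probes (0.0054 and 0.0115).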

How the results depend on the processing

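With the HepaRG batch as a block (same-numbered libraries had a median correlation of deviations of 0.00979, others -0.00366), counts were 971 pooled, 28 panobinostat, 977 scriptaid, 0 trichostatin A and 2615 vorinostat. Without one batch at a time the ranges were 7 to 1116 pooled, 0 to 521 panobinostat, 32 to 1376 scriptaid, 0 to 0 trichostatin A, 474 to 3858 vorinostat, 7 to 783 with 1 sign in all 4, 0 to 248 called in 3 chemicals, 2 to 2529 departing and 1 to 92 list probes called, where all libraries gave 70 of 287 tested. Pooled counts were 384 without panobinostat, 568 without scriptaid, 1973 without trichostatin A and 27 without vorinostat, and those with 1 sign were 271 without panobinostat, 1874 without trichostatin A and 27 without vorinostat. Without the divergent trichostatin A library there were 1525 pooled, 954 with 1 sign, 119 in panobinostat, 85 in 3 chemicals and 106 list probes. Without the divergent scriptaid library there were 242 in panobinostat, 110 in 3 chemicals and 2310 departing. Without both there were 1851 pooled, 1114 with 1 sign, 738 in panobinostat, 1807 in scriptaid, 1 in trichostatin A, 4213 in vorinostat, 331 in 3 chemicals, 2856 departing and 119 list probes. DESeq2 gave 145 in panobinostat, 75 in 3 chemicals and 1887 departing, and no filter on low counts gave 167, 118 and 1834, with 16 in trichostatin A. Fitted alone, panobinostat had 336 and scriptaid 623.

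The left-out difference, rising minus falling median, was 1.17 in panobinostat (0.85 without the divergent scriptaid library, 0.89 without both, 1.10 without replicate 3), 1.36 in scriptaid (1.75 without replicate 3) and 5.54 in vorinostat (5.79 with other size factors, 4.39 with the block, 4.17 without replicate 3, 4.23 and 4.19 without either divergent library, 3.85 without both). In trichostatin A it was -0.34, and 0.07 with the block, -0.71 to 0.02 without a batch, 0.08 without the divergent trichostatin A library and 0.02 without both. The causes were not tested. Of the 71 named probes followed through the alternatives, 0 reversed, but 58 lost the call without replicate 1, 64 without replicate 2 and 58 of 70 without vorinostat. Named deacetylases that were not called did change sign, such as HDAC1 (-0.02, and 0.11 without replicate 3). Depth limits the genes near 3 counts, and solvent controls were not used here.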
